A study of Mus musculus with 4 samples.

Results

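Motile cilia genes were examined in brain vascular-associated cells (BVACs), the endothelial, immune, mural, choroid plexus, ependymal and glial cells recovered when mouse brain is pulled down with beads that carry an antibody to CD31, a surface protein of endothelial cells. The set held 64 of the 31053 genes in the gene list of the libraries. It was chosen by symbol: every one that starts with Cfap, Dnah, Dnai, Rsph, Tekt or Drc, with Foxj1, Ccdc153, Tmem212 and Mcidas added. Of those added, Foxj1, Ccdc153 and Tmem212 are among the genes the study used to name the ependymal cluster of these same libraries. Levels are given as CPM, the unique molecules (UMIs) of a gene scaled to a total of 1000000 UMIs over all genes in the same cells of the same library. The kit reads the 3′ ends of transcripts, so a UMI count does not grow with transcript length, and levels of different genes are set side by side on that scale without division by length.

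Wild-type male C57BL/6 mice, 12 to 14 weeks old, went through chronic social defeat (CSD) or served as home cage (HC) controls for 14 days. A CSD mouse lived behind a perforated divider in the cage of an aggressive CD-1 male and met it directly for a short time each day, while an HC mouse lived behind a divider that was never lifted. The cerebellum, striatum, brainstem and olfactory bulbs had been cut away, and cells from 4 mice of one condition were pooled into each library. There were 2 libraries per condition (CSD 1, CSD 2, HC 1 and HC 2), and a library is the unit of replication throughout.

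A motile cilium beats because dynein motors, held in outer and inner rows of arms along the microtubule doublets, slide neighbouring doublets past each other. Radial spokes, the central pair and the nexin-dynein regulatory complex turn that sliding into a bend, and tektins and other filament proteins stiffen the doublets from inside. Ependymal cells, which line the brain ventricles, carry tufts of such cilia that move cerebrospinal fluid, whereas choroid plexus epithelial cells, which secrete that fluid, carry tufts of short cilia whose motility is known mostly from around birth.

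Barcodes with at least 500 UMIs, at least 250 genes and at most 25% mitochondrial UMIs were kept, which gave 14415 cells, from 2553 in CSD 2 to 4934 in HC 2. Library totals lay between 27297599 and 30361474 UMIs. Ependymal cells were gated with 8 genes that are not in the set (Dynlrb2, Mlf1, Fam183b, Rarres2, 1700016K19Rik, Pifo, Enkur and 1110017D15Rik), which gave 185 cells: 41 in CSD 1, 28 in CSD 2, 57 in HC 1 and 59 in HC 2. Barcodes in which Ttr, the transthyretin transcript of the choroid plexus, made up at least 20% of UMIs were split by depth into 1279 deep ones (at least 5000 UMIs) and 410 shallow ones (500 to under 3000 UMIs). The deep barcodes carried a median of 8 of 8 choroid plexus genes (Folr1, Enpp2, Kcnj13, Clic6, Kl, Aqp1, Kcne2 and Sostdc1), the shallow ones 4 and the gated ependymal cells 1. CSD 2 stood apart in its free RNA, since Ttr took 2.33% of UMIs in its near-empty barcodes (at most 100 UMIs) against 10.6% to 14.0% in the other libraries. It also held only 61 deep barcodes, against 260 to 627.

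The label of the ependymal class rests on its gate genes, which summed to between 8391 and 10005 CPM by construction. Of the 185 cells, 57 passed with exactly the least lead of 2 genes over the next list, and 65 carried at least 3 genes of a list other than those of ependymal cells and astrocytes. Without these 65 cells the set summed to 15757 CPM, against 15524 with them. In the gated cells the 8 choroid plexus genes summed to between 353 and 571 CPM, whereas in the deep barcodes the choroid plexus genes summed to between 17425 and 19230. All of the choroid plexus, astrocyte, endothelial and microglia markers had at least 1 UMI in the gated ependymal cells, and astrocyte markers reached 1394 to 1717 CPM there. Of the 1279 deep barcodes, 559 carried 5 or more of the ependymal gate genes, but in 0 of them did that list lead by 2 genes. Cell barcodes shared between pairs of libraries numbered 0 to 9.

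Promoter windows of RefSeq genes (GRCm38.p6, 250 bases before to 50 bases after the start) were matched for 52 of the 64 members, and 6 are printed 5′ to 3′ on the strand of the gene. Tmem212, Ccdc153 and Dnah5 are shown as genes nearly absent from the deep barcodes, Rsph9 and Cfap36 as those with the smallest ratios of ependymal to deep level, and Dnah9 as an outer arm motor in between, for comparison with Dnah5. Their places are Tmem212, chr3:27896319-27896618, minus strand; Ccdc153, chr9:44240427-44240726, plus strand; Dnah5, chr15:28203516-28203815, plus strand; Rsph9, chr17:46144151-46144450, minus strand; Cfap36, chr11:29247223-29247522, minus strand; and Dnah9, chr11:66168502-66168801, minus strand. Capitals mark, on either strand, GTTGCC (an arm of the X-box bound by RFX factors, which drive cilia genes), GTTGCTNGGNAAC (a paired X-box spelling) or TGTTTA (a core bound by forkhead factors, the family of Foxj1).
Tmem212: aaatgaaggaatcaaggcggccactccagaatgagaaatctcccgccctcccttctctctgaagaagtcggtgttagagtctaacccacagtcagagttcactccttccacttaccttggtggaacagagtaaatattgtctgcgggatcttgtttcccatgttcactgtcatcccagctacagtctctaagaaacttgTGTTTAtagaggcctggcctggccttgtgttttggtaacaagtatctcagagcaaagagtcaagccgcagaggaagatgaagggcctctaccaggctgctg
Ccdc153: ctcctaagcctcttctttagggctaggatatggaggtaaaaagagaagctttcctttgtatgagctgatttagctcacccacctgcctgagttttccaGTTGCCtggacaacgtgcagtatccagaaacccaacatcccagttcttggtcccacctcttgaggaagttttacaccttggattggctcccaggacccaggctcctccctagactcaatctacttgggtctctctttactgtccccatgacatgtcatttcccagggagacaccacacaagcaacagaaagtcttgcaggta
Dnah5: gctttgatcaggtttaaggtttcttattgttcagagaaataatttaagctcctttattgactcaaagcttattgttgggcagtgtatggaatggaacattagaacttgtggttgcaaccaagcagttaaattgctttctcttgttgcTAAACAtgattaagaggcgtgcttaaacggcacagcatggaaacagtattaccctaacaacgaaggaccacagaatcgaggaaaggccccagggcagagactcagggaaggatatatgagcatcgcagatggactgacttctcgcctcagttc
Rsph9: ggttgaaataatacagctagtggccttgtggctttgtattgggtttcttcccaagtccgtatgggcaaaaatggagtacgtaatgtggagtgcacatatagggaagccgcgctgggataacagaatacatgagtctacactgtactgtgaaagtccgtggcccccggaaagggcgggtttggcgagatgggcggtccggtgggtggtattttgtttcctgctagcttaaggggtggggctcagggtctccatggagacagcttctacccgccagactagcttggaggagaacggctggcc
Cfap36: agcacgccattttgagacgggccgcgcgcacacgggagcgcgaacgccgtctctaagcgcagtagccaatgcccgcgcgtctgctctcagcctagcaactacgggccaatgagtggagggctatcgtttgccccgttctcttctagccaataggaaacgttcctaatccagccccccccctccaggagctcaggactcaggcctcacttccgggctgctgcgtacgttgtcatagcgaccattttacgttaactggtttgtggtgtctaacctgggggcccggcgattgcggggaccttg
Dnah9: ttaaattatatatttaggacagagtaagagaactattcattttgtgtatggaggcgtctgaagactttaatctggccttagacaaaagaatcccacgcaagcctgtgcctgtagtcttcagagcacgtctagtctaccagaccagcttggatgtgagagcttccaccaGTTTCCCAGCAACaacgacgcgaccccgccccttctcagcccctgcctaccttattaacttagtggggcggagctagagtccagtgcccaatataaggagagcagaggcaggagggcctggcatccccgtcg

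In these letters the Tmem212 and Dnah5 windows held the forkhead core, the Ccdc153 window held the single arm, the Dnah9 window held the paired spelling, and the Rsph9 and Cfap36 windows held none of the 3. Tekt3, with 28 ependymal UMIs and 0 deep ones, has no ratio but is counted next among the 9 at 100 or more. Its window held the forkhead core, and it is among the 4 given for that core. The group of 9 by ratio described further on leaves Tekt3 out. Among members with a window, the paired spelling was in 0 of the 9 with a ratio of 100 or more and in 0 of the 5 with a ratio of 1 to 5, GTTGCC in 4 and 1 of them, and TGTTTA in 4 and 0. Over all 52 windows, GTTGCC was present in 19 members (36.5%) against 14.1% of 27025 genes, and GTTGCTNGGNAAC in 6 (11.5%: Dnah9, Dnaic1, Dnaic2, Drc3, Rsph3b and Tekt2) against 0.292%. TGTTTA was present in 11 (21.2%) against 15.1%. In all, 12 spellings were searched on both strands, some of which overlap (GTTGCCA, found in 10 members, holds GTTGCC), and they were chosen with results known. Other paired X-box spellings among the 12 were found in 8 members (15.4% against 7.15% of all genes), 4 (7.69% against 0.936%) and 2 (3.85% against 1.49%). The rest of the paired spellings were found in 0 members, and each in at most 0.529% of all genes. These shares are descriptions without a test, and a match is not a bound site.

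Gated ependymal cells carried the set at 15524 ± 442 CPM (SD, n = 4 libraries of both conditions). The sum was 14964 in CSD 1, 15753 in CSD 2, 15977 in HC 1 and 15400 in HC 2. The libraries lay close together, with the conditions overlapping, and without CSD 2 the mean was 15447. Of the 64 members, 61 had a UMI in these cells and 34 reached 100 CPM, and the median member stood at 119. The members without a UMI were Rsph6a, a radial spoke protein known from sperm, Dnah17, an outer arm heavy chain known from sperm, and Dnah2os, a non-coding RNA antisense to Dnah2. The sum per cell ran from 3650 to 23880 CPM, with a median of 15546. As the gate rests on cilia genes of the same cells, that no gated cell lacked the set is no independent result.

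Tmem212 and Ccdc153, which the study used among its ependymal markers, held 35.8% of the set's UMIs in these cells. Tmem212, which encodes a transmembrane protein (GRCm38 chr3:27866066-27896368, minus strand), measured 2816 CPM in CSD 1, 2920 in CSD 2, 3181 in HC 1 and 2923 in HC 2. Ccdc153, which encodes a coiled-coil protein (chr9:44240676-44247306, plus strand), measured 2178 in CSD 1, 2805 in CSD 2, 2546 in HC 1 and 2793 in HC 2. CSD 1 was the lowest library for both. Without this pair the remaining members summed to 9983 ± 233 CPM (SD, n = 4).

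Among the regulators, Foxj1, the transcription factor that switches on the motile cilia programme (chr11:116330704-116335399, minus strand), measured 571 CPM in CSD 1, 557 in CSD 2, 431 in HC 1 and 449 in HC 2. Both CSD libraries lay above both HC libraries. Mcidas, the multicilin gene that acts upstream while multiciliated cells form, had 1 UMI in all gated cells together.

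Radial spoke genes summed to 1977 ± 34.8 CPM (SD, n = 4). Rsph1, a spoke head protein (chr17:31255019-31277383, minus strand), measured 1217 in CSD 1, 1159 in CSD 2, 1202 in HC 1 and 1207 in HC 2, and its coefficient of variation of 2.14% was the lowest among the 34 members at 100 CPM or more. The spoke head genes Rsph9 and Rsph4a averaged 351 and 270. Rsph3a and Rsph3b, near-identical copies whose reads can be split between them, averaged 6.52 and 8.59 and are uncertain.

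Dynein heavy chains, the motors themselves, were led by the inner arm genes, which summed to 1166 ± 90.4 CPM over 10 genes, while the outer arm genes summed to 481 ± 37.4 over 5 (SD, n = 4). Dnah12 averaged 303 CPM and Dnah6 averaged 282 among the inner arm genes. Dnah5 averaged 202 and Dnah9 averaged 180 among the outer arm genes. Dnah8, a motor known from sperm tails, had 1 UMI. Dnah7a, Dnah7b and Dnah7c averaged between 41.02 and 69.5 and are uncertain too, as near-identical copies. The intermediate chains Dnaic1 and Dnaic2, which anchor the outer arm, averaged 131 and 75.8.

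Among the genes of the nexin-dynein regulatory complex, the link between doublets, Drc3 averaged 438 CPM, Drc7 averaged 165 and Drc1 averaged 162. Tekt1 averaged 250 among the 5 tektin genes, and Tekt5, known from sperm, had 1 UMI. The 26 genes named Cfap, a mixed group of axonemal proteins, summed to 4467 ± 147 CPM (SD, n = 4). Cfap126, also known as Flattop and needed for basal body placement (chr1:171113918-171126967, plus strand), measured 479 in CSD 1, 661 in CSD 2, 582 in HC 1 and 579 in HC 2. It was lowest in CSD 1 and highest in CSD 2, so the conditions overlapped.

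Other genes of the group averaged between 166 and 435 CPM among the 24 members with the highest levels. They included Cfap20 at 435, a protein of the inner junction of the doublet, Cfap54 at 405, a central pair protein, and Cfap36 at 331. Cfap45, Cfap161 and Cfap52, proteins of the doublet lumen, averaged 285, 250 and 245, Cfap44 and Cfap43, which tether an inner arm dynein, averaged 246 and 166, and Cfap100 and Cfap206 averaged 191 and 186. These 24 members held 83.7% of the set's UMIs. Across the 34 members at 100 or more, the coefficient of variation over the 4 libraries had a median of 11.6% and was largest for Cfap77 at 40.6%.

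**Figure D1:**
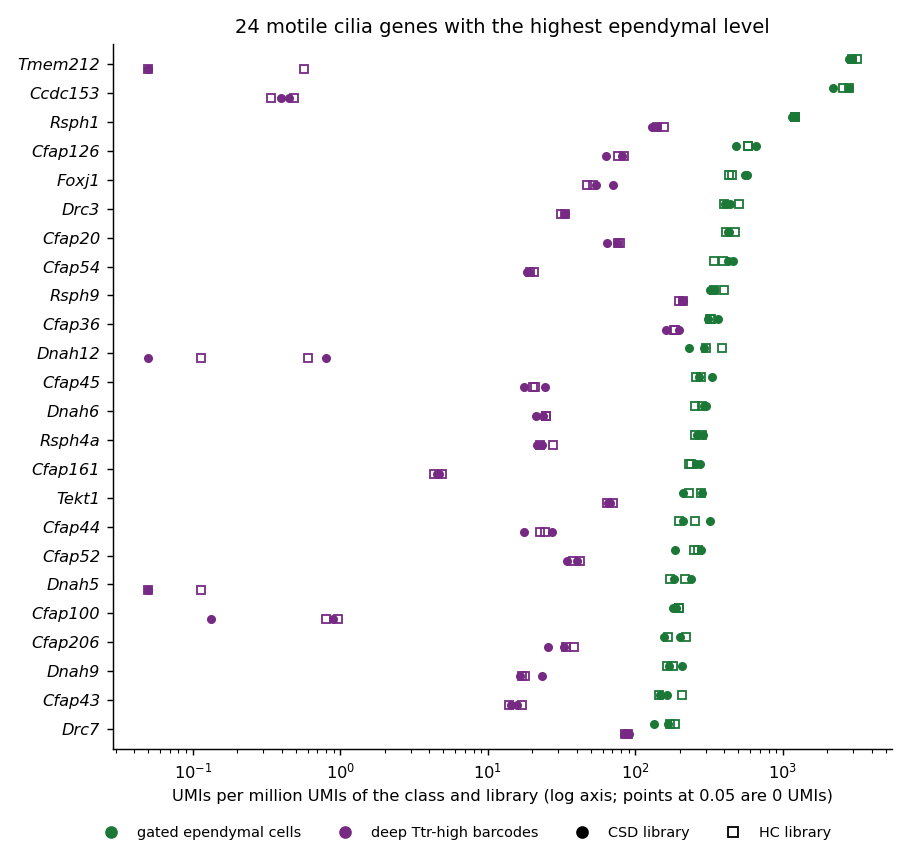
Level of the 24 members highest in ependymal cells, in CPM on a log axis, in gated ependymal cells (green) and deep Ttr-high barcodes (purple), with 1 point per library, filled for CSD and open for HC, and points at 0.05 standing for 0 UMIs. Tmem212, Ccdc153, Dnah12, Dnah5 and Cfap100 lie below 1 CPM in the deep barcodes, whereas Rsph9 and Drc7 lie close to their ependymal levels.

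The deep Ttr-high barcodes carried the same set at a lower sum, 1392 ± 32.0 CPM (SD, n = 4). It was 1388 in CSD 1, 1350 in CSD 2, 1427 in HC 1 and 1401 in HC 2. No library overlapped the ependymal range. A member UMI was present in all 1279 barcodes, whose sums ran from 197 to 2944 with a median of 1374, below the lowest gated ependymal cell. Only 3 members reached 100 CPM, and the median member stood at 4.95, although 61 of 64 had a UMI here as well. The 3 without one were Rsph6a, Tekt3 and Mcidas.

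The order of the members was different in the deep barcodes. Rsph9 (chr17:46122035-46144216, minus strand) measured 211 CPM in CSD 1, 207 in CSD 2, 198 in HC 1 and 211 in HC 2. Cfap36 measured 197, 162, 182 and 187 in the same order of libraries, and Rsph1 measured 139, 129, 140 and 157. Rsph9 lay above Cfap36 in every library, though their ranges nearly met, and Rsph1 lay below both. Drc7 at 87.0 and Cfap126 at 76.0 followed as means. Foxj1 was present at 55.7 ± 10.2 (SD, n = 4).

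Tmem212 and Ccdc153 were nearly absent from them. Tmem212 had 5 UMIs in 26874082, all in HC 2 and in 5 barcodes, and Ccdc153 had 11 UMIs in 9 barcodes, with values from 0.341 to 0.482 CPM across the libraries. Dnah5 had 1 UMI, Dnah10 had 2, and Dnah12 had 12. Dnah9, the other leading outer arm motor of ependymal cells, had 475 UMIs here (16.4, 23.4, 17.8 and 17.1 CPM in CSD 1, CSD 2, HC 1 and HC 2). The dynein heavy chain genes thus split within one arm type, with Dnah9 present in every library and Dnah5 found once.

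**Figure D2:**
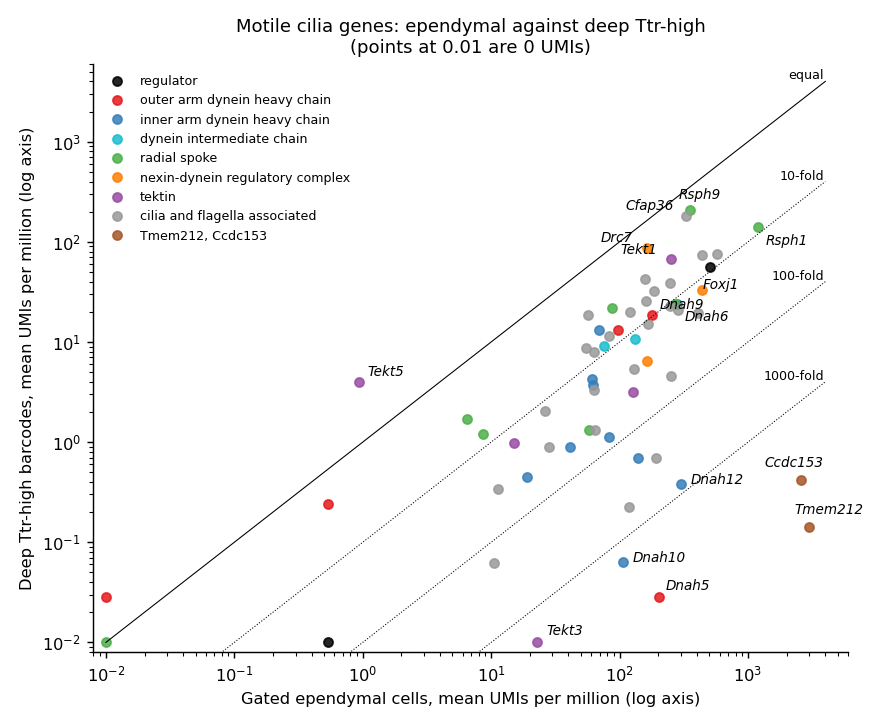
Mean level of each member in gated ependymal cells (x axis) against deep Ttr-high barcodes (y axis), in CPM on log axes, coloured by role, with lines of equal level and of 10, 100 and 1000 times, and points at 0.01 standing for 0 UMIs; Dnah2os is not drawn. Rsph9, Cfap36 and Drc7 lie nearest the line of equal level among the members at 100 or more, whereas Tmem212, Ccdc153 and Dnah5 lie past the line of 1000 times.

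Ratios of ependymal to deep level, from UMIs summed over the libraries, ran over 4 orders of magnitude among the 56 members with more than 10 ependymal UMIs. In 0 of them was the ratio below 1, in 7 it was 1 to 5, in 27 it was 5 to 20, in 12 it was 20 to 100, and in 9 it was 100 or more. Members with few ependymal UMIs could not enter this count. The 0 therefore does not cover Tekt5 (1 ependymal and 113 deep UMIs) or Dnah2os (0 and 37). The remaining one of the 56 was Tekt3, a tektin, with 28 ependymal UMIs and 0 deep ones, which was at least 202-fold higher in ependymal cells, against a floor of 3 UMIs over the whole class. The 7 with the smallest ratios were Rsph9, Cfap36, Drc7, Cfap97, Cfap69, Tekt1 and Rsph10b. All intervals here are exact binomial 95% intervals and cover counting error only.

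At the near-equal end, Rsph9 was 1.69-fold higher in ependymal cells (interval 1.53 to 1.86), Cfap36 1.76-fold (1.59 to 1.95) and Drc7 1.90-fold (1.64 to 2.19), each in 4 of 4 libraries. All ratios in this paragraph are of CPM, and with the scaling of the fit below none of these genes was called higher. At the far end, Tmem212 was 16118-fold higher (6900 to 49668), Ccdc153 6316-fold (3525 to 12664) and Dnah12 708-fold (401 to 1383). Dnah5, with 1 deep UMI, gave a ratio of 5472 (973 to 216978) and Dnah10, with 2, a ratio of 1449 (393 to 12089). Cfap46, a central pair protein, was 463-fold higher (219 to 1173) and Cfap100, a modifier of inner arm dyneins, 287-fold (178 to 493). Between these ends lay Foxj1 at 9.37-fold, Rsph1 at 8.29-fold and Cfap126 at 7.69-fold. Tekt5 went the other way, with 113 deep UMIs and 1 ependymal UMI, a ratio of 0.191 (0.00480 to 1.09), and was higher in ependymal cells in 0 of 4 libraries.

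By role, inner arm heavy chains came next after Tmem212 and Ccdc153, at 24.1 times the deep level, followed by outer arm heavy chains at 14.9, intermediate chains at 10.5 and regulators at 9.03. The Cfap genes differed by 7.04 times, the nexin-dynein regulatory complex by 6.06, tektins by 5.56 and radial spokes by 4.97. Radial spoke genes therefore took 28.6% of the set's summed level in deep barcodes against 12.7% in ependymal cells, and Tmem212 with Ccdc153 took 0.0402% against 35.7%. These are ratios of means over the 4 libraries without a test of one role against another. Without Tmem212 and Ccdc153 the set still summed to 9983 ± 233 in ependymal cells and 1391 ± 32.0 in deep barcodes.

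Fitted across all genes with edgeR's quasi-likelihood test, with TMM scaling and the library as a block, 53 of 56 members tested were higher in ependymal cells at an adjusted p under 0.05 (Benjamini-Hochberg) and 0 were lower. Of all 10400 genes tested, 30.8% were higher and 31.1% lower. The filter on low counts sets which members are tested, and without it a member was called lower. The 0 thus holds only for members that passed the filter. The median log2 difference was 2.80 over the members and -0.01 over all genes. The gate itself rests on cilia genes of the same cells, so that the set is higher as a whole is no independent result, and what the fit adds is the spread among members. Tmem212 and Ccdc153 had served the study as ependymal markers of these same libraries. Their place at the top of that spread is therefore no independent result either. The 5 with the largest log2 differences were Tmem212 at 12.85 ± 0.22 (SE), Ccdc153 at 11.61 ± 0.15, Dnah5 at 10.62 ± 0.33, Dnah10 at 9.05 ± 0.39 and Dnah12 at 8.51 ± 0.23. Every SE given with an edgeR fit is the size of the log2 difference over the square root of the test's F value. It is not an estimate from edgeR itself. For Tmem212, Dnah5 and Dnah10, with 5, 1 and 2 deep UMIs, the counting intervals above are much wider than these SEs.

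Foxj1 was higher by a log2 difference of 2.30 ± 0.11 (SE, edgeR adjusted p = 2.4e-15), Rsph1 by 2.21 ± 0.09 (1.4e-16) and Cfap126 by 2.03 ± 0.10 (6.3e-15), all in 4 of 4 libraries. The members that did not pass the test were Rsph9 at -0.11 ± 0.10 (edgeR adjusted p = 0.346), Cfap36 at -0.01 ± 0.10 (0.912) and Drc7 at 0.05 ± 0.13 (0.747). For these 3 the scaling set the result, and for Rsph9 and Cfap36 the sign: with library totals in place of TMM, the median over all genes moved from -0.01 to 0.87 and all 56 members were called higher. The share of all genes called higher with that scaling is not given, so the count of 56 is not read as a result about the members. Ttr alone took between 30.5% and 31.6% of UMIs in the deep barcodes, which leaves less of the CPM scale to other genes. Its part in the move of the median was not tested.

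Tmem212 was rarer in deep barcodes than in free RNA. Near-empty barcodes carried Tmem212 at 29.9 CPM in CSD 1, 58.5 in CSD 2, 76.0 in HC 1 and 148 in HC 2, above its mean of 0.142 in the deep barcodes. For each Rsph9 UMI there were 8.57 Tmem212 UMIs in ependymal cells, 0.991 in near-empty barcodes and 0.000899 in deep barcodes. For each Dnah9 UMI there were 1.13 Dnah5 UMIs in ependymal cells, 0.737 in near-empty barcodes and 0.00211 in deep barcodes. By library, the near-empty ratio of Tmem212 to Rsph9 ran from 0.403 in CSD 1 to 1.72 in CSD 2. That of Dnah5 to Dnah9 ran from 0.474 in CSD 1 to 1.07 in HC 2. Both ratios were lower in the deep barcodes of every library. The part of free RNA in the deep levels was not tested.

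**Figure D3:**
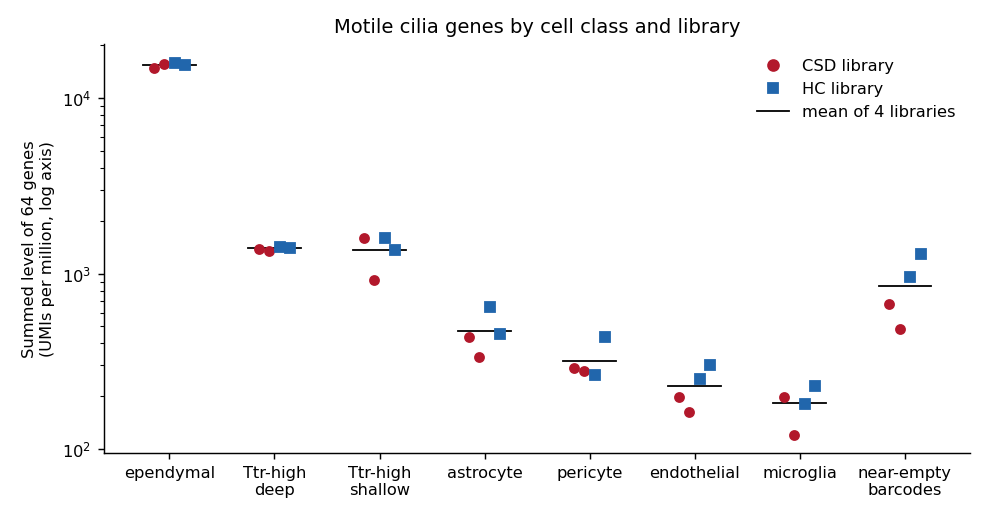
Summed level of the 64 members by cell class, in CPM on a log axis, with 1 point per library (red for CSD, blue for HC) and a line at the mean. Ependymal cells lie near 15524, deep and shallow Ttr-high barcodes near 1392 and 1372, and endothelial cells and microglia near 228 and 182.

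Depth differs between the classes, with a median of 5255 UMIs in gated ependymal cells, 17586 in deep, 994.5 in shallow and 1106 in endothelial barcodes, so each cell was thinned to 500 UMIs before shares of cells were compared. A UMI of any member was then found in 100% of ependymal cells, 50.1% of deep and 49.0% of shallow barcodes, and in 11.1% of endothelial cells and 9.40% of microglia. Before thinning these shares were 100%, 100%, 75.6%, 26.5% and 33.4%. Tmem212 was found in 73.5% of thinned ependymal cells, 0.343% of endothelial cells and 0 of 1279 thinned deep barcodes, which at a depth of 500 UMIs allows up to 0.235% with a UMI. At full depth it was found in 95.1% of ependymal cells, 0.706% of endothelial cells and 0.391% of deep barcodes. Rsph9 was found in 13.5% of ependymal cells and 10.1% of deep barcodes, against 0.565% of endothelial cells, where the share is taken as background. Foxj1 was found in 22.2%, 2.89% and 0.202%.

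Deep and shallow Ttr-high barcodes carried the set at a similar sum, with a wider spread in the shallow ones: 1597 CPM in CSD 1, 926 in CSD 2, 1598 in HC 1 and 1366 in HC 2 (1372 ± 316, SD). The shallow barcodes held 713 member UMIs in all, and 15 members had none. Of 31 members that could be tested, 1 was higher in deep barcodes, against 1.48% of 8159 genes, and 2 were lower, against 1.26%. Foxj1 measured 54.4, 70.1, 51.4 and 46.7 CPM in deep barcodes of CSD 1, CSD 2, HC 1 and HC 2, while the shallow ones held only 2, 0, 2 and 5 UMIs of it, with a mean of 15.7 CPM. Near-empty barcodes held Foxj1 at 21.9, 11.1, 27.3 and 30.8 CPM, about as much as the shallow ones. The classes did not overlap, and the log2 difference was 1.603 ± 0.45 (SE, edgeR adjusted p = 0.0181).

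Cfap126 measured 187, 149, 203 and 126 CPM in the shallow barcodes of CSD 1, CSD 2, HC 1 and HC 2, against 63.1, 80.9, 83.8 and 76.3 in the deep ones. Near-empty barcodes held it at 37.1, 20.5, 52.6 and 72.7, below the shallow barcodes of each library. All 4 libraries were lower in the deep class (log2 difference -0.95 ± 0.23, edgeR adjusted p = 0.00264). Rsph10b, a radial spoke gene that shares 410 exonic bases with neighbouring genes, was lower in deep barcodes too (-1.23 ± 0.38, edgeR adjusted p = 0.0455), but CSD 2, with 0 UMIs in its shallow barcodes, went the other way. These 3 calls depend on single libraries: without HC 1 or without HC 2 there were 0 calls, without CSD 1 there was 1 (Cfap126), DESeq2 called Cfap126 alone, and a minimum of 1000 UMIs per cell left 0.

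**Figure D4:**
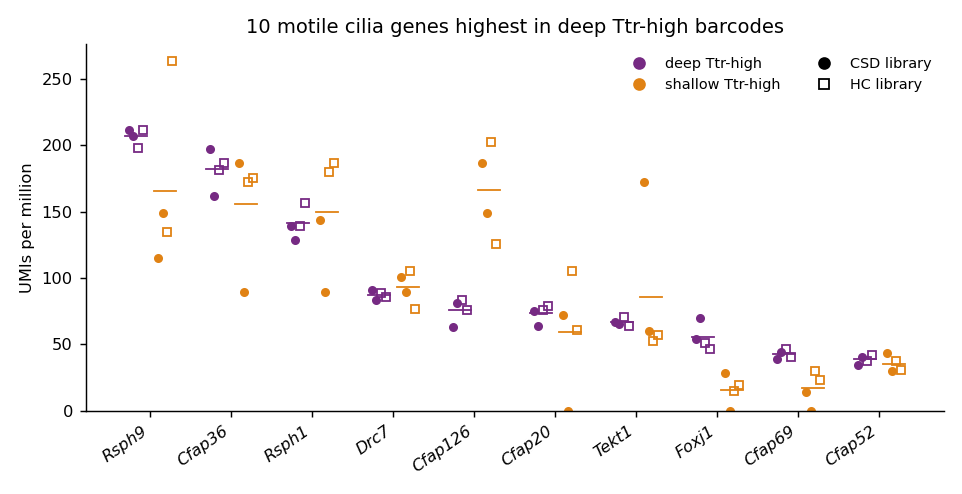
Level of the 10 members highest in deep barcodes, in CPM, in deep (purple) and shallow (orange) Ttr-high barcodes, with 1 point per library, filled for CSD and open for HC, and a line at the mean of 4 libraries. Foxj1 lies higher in the deep barcodes of every library and Cfap126 lower, while Rsph9, Cfap36 and Rsph1 overlap.

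CSD and HC were compared for every member in each class, which addresses whether the stress condition came with a shift of the cilia programme in the cells that carry it. In gated ependymal cells 49 members of 4636 genes could be tested, and 0 were called, as were 0% of all genes by edgeR at an adjusted p under 0.05. At an unadjusted p under 0.05 there were 0 members and 192 genes, and DESeq2 called 0 members. The libraries of the conditions did not overlap for 16 of 49 members (32.7%), against 32.3% of all genes tested. The median log2 difference of CSD to HC was -0.08 over the members and -0.003 over all genes.

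The member with the lowest p was Dnah12, at 294 and 230 CPM in CSD 1 and CSD 2 and 386 and 301 in HC 1 and HC 2. The conditions did not overlap, CSD being lower, with a log2 difference of -0.44 ± 0.24 (SE, edgeR unadjusted p = 0.0817, adjusted p = 0.994). Foxj1, with both CSD libraries above both HC libraries, differed by 0.32 ± 0.21 (edgeR adjusted p = 0.994). The log2 difference was -0.05 ± 0.20 for Rsph1, -0.06 ± 0.22 for Cfap126 and 0.06 ± 0.26 for Dnah5.

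In deep Ttr-high barcodes 43 members of 11477 genes could be tested and 0 were called, against 0.0871% of all genes (10 genes). DESeq2 called 0 members. The conditions did not overlap, in either direction, for 15 of 43 members (34.9%), against 29% of all genes. Over all genes that share was not split by direction. Of the 15 members, 2 were higher in CSD. Foxj1 was one of them, at 54.4 and 70.1 CPM in CSD 1 and CSD 2 and 51.4 and 46.7 in HC 1 and HC 2 (log2 difference 0.30 ± 0.18, edgeR unadjusted p = 0.109, adjusted p = 0.9999). Both of its CSD values lay above its HC values here, as in the ependymal cells of the same libraries. The share of all genes apart in the same direction in both classes was not computed. Whether the CSD effect differed between ependymal cells and deep barcodes was tested with an interaction term, which called 0 of 56 members and 0% of 10400 genes. At an unadjusted p under 0.05 there were 0 members, and the lowest p in this edgeR test was 0.0546, for Tmem212. Its deep side rests on 5 UMIs, all in HC 2.

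**Figure D5:**
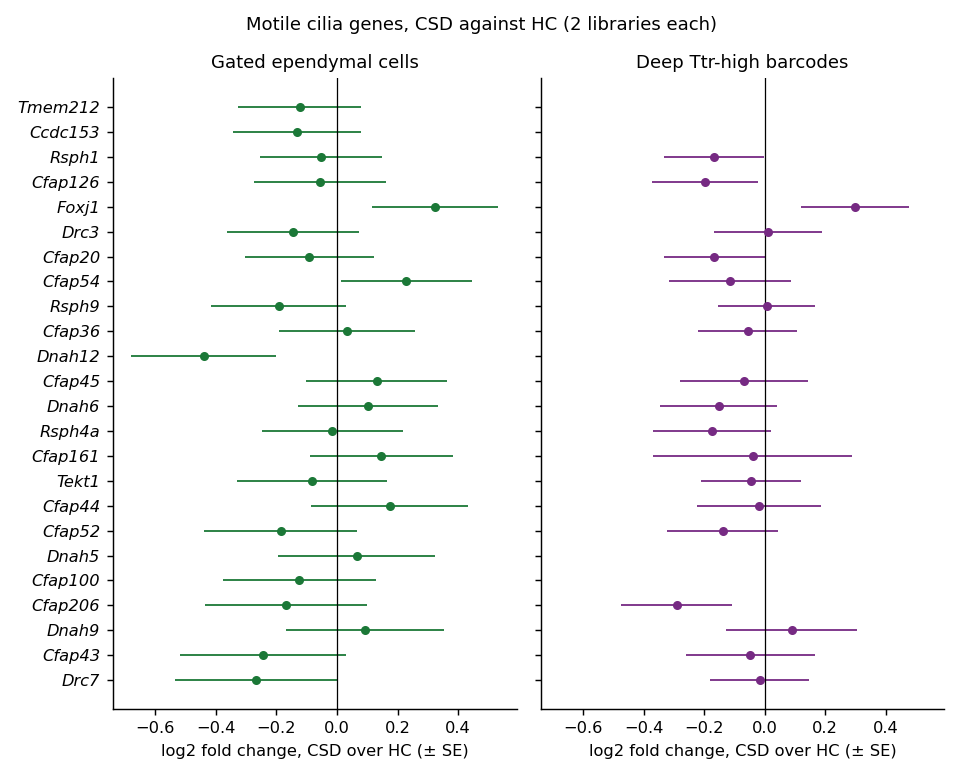
Log2 difference of CSD to HC for the 24 members highest in ependymal cells, in gated ependymal cells and in deep Ttr-high barcodes, with 2 libraries per condition. Bars are 1 SE, taken as the size of the log2 difference over the square root of the F value of the edgeR test. The bars of Foxj1 lie above 0 in both classes, at 0.32 and 0.30, and no member passed the test.

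In shallow Ttr-high barcodes 5 members of 1146 genes could be tested, and 0 were called, as were 0% of all genes. In microglia 8 members were tested and 0 were called, with 0% of 10013 genes called and 0 members at an unadjusted p under 0.05. In endothelial cells 9 members were tested and 0 were called, against 0.0492% of 10157 genes. At an unadjusted p under 0.05, however, 4 of the 9 (44.4%) were found, against 7.55% of all genes. The conditions did not overlap, in either direction, for 5 of 9 (55.6%), against 38% of all genes. These 5 were all lower in CSD, and the share of all genes apart in that direction was not computed.

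Of these 4 genes, Tmem212, Ccdc153 and Rsph1 were the 3 highest members in ependymal cells, and Cfap97 was among the leading members of endothelial cells. Tmem212 had 3 and 5 UMIs in the endothelial cells of CSD 1 and CSD 2 and 21 and 26 in those of HC 1 and HC 2, a log2 difference of -2.59 ± 0.49 (SE, edgeR unadjusted p = 0.000799, adjusted p = 0.165). Ccdc153 differed by -2.58 ± 0.64 (adjusted p = 0.325), Rsph1 by -1.77 ± 0.57 (adjusted p = 0.497) and Cfap97 by -0.54 ± 0.18 (adjusted p = 0.538), all from edgeR. The level in near-empty barcodes moved with them: the set summed to 675 and 483 CPM there in CSD 1 and CSD 2, and to 956 and 1289 in HC 1 and HC 2. The part of free RNA in the endothelial difference was not tested. With CSD 1 or CSD 2 left out, members were called in endothelial cells. Those fits leave no replicate of CSD, and the share of all genes called in them is not given, so their counts are not read here.

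Outside the ciliated classes the set summed to 228 ± 60.4 CPM in endothelial cells and 182 ± 45.9 in microglia (SD, n = 4), below the near-empty barcodes of every library. Its leading members there were others than in ependymal cells. In endothelial cells they were Cfap36, Cfap20, Cfap97, Dnah2os and Cfap43, with 442, 327, 269, 90 and 84 UMIs, and in microglia Cfap20, Cfap36, Cfap97, Cfap74 and Cfap45, with 634, 305, 269, 157 and 105. Astrocytes carried 468 ± 129 CPM of the set.

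The share of cells in the ependymal gate was 1.01% in CSD 1, 1.10% in CSD 2, 2.001% in HC 1 and 1.20% in HC 2. CSD was the lower condition in every pairing of libraries, with means of 1.05% and 1.598% (difference -0.547 points, exact two-sided permutation test over libraries, p = 0.333). That is the smallest p that 2 against 2 libraries allow. Without HC 1 the difference was -0.145 points and without HC 2 it was -0.950 points.

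The wider ciliary machinery was followed in a list of 73 further genes, 3 of which (Dynlrb2, Enkur and Pifo) had served in the ependymal gate and were left out of the counts. Of the other genes, 65 could be tested between ependymal cells and deep barcodes, and 57 were higher and 2 lower, with a median log2 difference of 1.79. Over all 10400 genes tested, 30.8% were higher and 31.1% lower, with a median of -0.01. As the gate rests on cilia genes of the same cells, higher levels over this list are no independent result. All 7 central pair genes and all 8 dynein arm assembly factors tested were higher, as were 7 of 8 docking and light chain genes, 6 of 7 inner microtubule proteins and 15 of 18 intraflagellar transport genes, which carry cargo along every cilium. Intraflagellar transport had the smallest median log2 difference, 1.03, and multiciliation regulators the largest, 2.97. The 2 lower genes were Gmnc, an early regulator of multiciliated cells (-2.63 ± 0.30), and Dnajb1, a heat shock cochaperone placed with the radial spoke partners (-0.65 ± 0.13). Gmnc measured 9.03 CPM in ependymal cells and 33.0 in deep barcodes on average.

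The genes of this list with the highest levels in ependymal cells were the gate genes Dynlrb2, a dynein light chain, and Enkur, a protein inside the doublet, and then Ift43, a transport protein, at 1013, 451 and 450 CPM. Between CSD and HC, 0 of 61 genes of the list were called in ependymal cells and 0 of 62 in deep barcodes. Over all genes tested, the shares called were 0% of 4636 and 0.0871% of 11477.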

How the data were processed

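For each of the 4 libraries the authors deposited raw UMI counts for every gene in every barcode, without cell calling or normalization, made with Cell Ranger. The submitters' processing notes give version 4.0 and the builds GRCm38 and mm10, and other sources used here name other versions. Genes near identical copies and antisense genes such as Dnah2os are uncertain under this counting.

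A class needed at least 3 of the 8 genes of its list and a lead of 2 genes over the other 14 lists. Doublets were not removed. Counts were summed per library and class and tested, two-sided, with edgeR 4.0.16 (filterByExpr, TMM, quasi-likelihood) in R 4.3.3, adjusted over all genes tested, with DESeq2 1.42.0 as an alternative. Class comparisons had the library as a block and CSD against HC had none. The steps were tested on simulated counts with planted log2 changes of 2 in either direction. Those changes are larger than any member's difference of CSD to HC in ependymal cells. The simulation therefore does not show whether such small differences would be found. Positions come from GENCODE on GRCm38. The text names the study's markers and regulators, the 24 members highest in ependymal cells, the 5 highest in the deep, endothelial and microglia classes, every member called, the 5 with the largest differences between classes, and up to 6 members at 0. Other members named were chosen after their values were seen. The members and lists were chosen with earlier results of these data known.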

Additional observations from a re-analysis of the deposited data

Results flagged for a closer look

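Data outside the compared classes also held the set. In near-empty barcodes, which carry free RNA, the 64 members summed to 675 CPM in CSD 1, 483 in CSD 2, 956 in HC 1 and 1289 in HC 2, above the endothelial sum of every library.

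A further 27 unassigned cells had the ependymal list highest with a lead under 2 genes, and carried the set at 13418 CPM, close to the gated ependymal cells. In 20 of them the astrocyte list was within 1 gene.

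Another 38 cells in which the choroid plexus list led but Ttr took less than 20% of UMIs carried the set at a mean of 1466 CPM over the 3 libraries that held any. These values were measured without replicate tests.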

How the results depend on the processing

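Across 153 alternative settings of 12 results, 142 met the rule set for their result. A count of called members had to stay at 0 or, if above 0, within a set factor of the main count. The share of ependymal cells had to keep its direction, and a summed level had to move by less than its SD. Leaving out a library could not break the rule for the summed levels or the share, so those runs could not come out otherwise. The count of members called between ependymal cells and deep barcodes, in either direction, lay between 50 and 56. The shares of all genes called in these runs are not given. In 3 of the runs 1 member was called lower: without CSD 2, with the markers of the study as the gate, and without a filter on low counts. Members called between CSD and HC stayed at 0 in ependymal cells, deep and shallow barcodes and microglia in every alternative run, and between 0 and 3 in endothelial cells when a library was left out. Calls between deep and shallow barcodes were 1 with DESeq2, 0 with a minimum of 1000 UMIs, and between 0 and 4 over all settings, 0 to 1 when CSD 1, HC 1 or HC 2 was left out, for which the cause was not tested. The summed level in ependymal cells was 13458 CPM with the study's markers as the gate and 14801 with Leiden clustering. The cause was not tested. Removing Ttr counts from the totals gave 2022 in deep and 2144 in shallow barcodes, since it shrinks the denominator. The difference in the share of ependymal cells ran from -0.975 to -0.145 points.

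The labels give both conditions replicate numbers 1 and 2, but nothing says that a number marks a shared animal or day. Deviations of same-numbered libraries correlated at 0.063 in ependymal cells, 0.049 in deep and 0.036 in shallow barcodes, 0.025 in endothelial cells and 0.348 in microglia. With the replicate block 0 members were called between CSD and HC in each of these classes.

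The comparison in ependymal cells rests on only 28 to 59 cells per library and 2 libraries per condition. Libraries are pools of 4 mice, so p-values of CSD against HC within a class measure the spread between pools. In fits with the library as a block, p-values rest on how far the difference between classes varied over libraries.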
